A study of Mus musculus with 12 samples.

Results

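A set of 10 genes of the sinusoidal and vascular endothelium was examined in fetal mouse liver: Stab1, Stab2, Lyve1, Pecam1, Cdh5, Kdr, Tek, Podxl, Clec4g and Oit3. They were taken by gene symbol from a table of 30743 symbols, and each of the 10 had 1 row there. The RNA came from whole livers of male C57BL/6J fetuses at 15 ± 0.5 dpc (days post coitum), 6 from dams on a control diet with 13.5 kcal% fat and 6 from dams on a high-fat diet (HFD) with 60 kcal% fat, kept on it for 12 to 14 weeks. The value used for each gene was the authors' average log2 CPM (log2 of the counts-per-million value), a single average over the 12 livers of both diets. The diets were therefore not compared here, the values have no SD and no replicate check, and the intervals below cover counting error only.

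Liver sinusoids are lined by a specialized endothelium with open pores and no continuous basement membrane. These cells take up waste molecules from blood through scavenger and lectin receptors, and they share junction proteins and growth factor receptors with the endothelium of other vessels. In the fetal liver they also border the islands in which blood cells form. Because whole livers were sequenced, fewer endothelial cells and less RNA per endothelial cell cannot be told apart in any level below.

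Of the 10 genes, 8 had reads and all 8 lay above 1 CPM, while Pecam1 and Tek were listed at the lowest value in the table, that of rows without reads. In the table as a whole, 10171 of the 30743 rows lay above 1 CPM, which is 51.8% of the 19652 rows with reads. The 4 most abundant, in CPM and per kb of exon, were Lyve1 (a hyaluronan receptor) at 151 CPM, Cdh5 (the cadherin of endothelial junctions) at 144 CPM, Podxl (a sialomucin of the cell surface) at 131 CPM and Oit3 (a protein with a zona pellucida domain, found mainly in liver) at 110.3 CPM. Together these 4 made up 78.9% of the summed CPM of the 8 genes. The median of the 10 genes was 65.0 CPM, above 88.0% of all rows with reads, whose own median was 1.15 CPM. From Lyve1 to Stab2, the levels in CPM spanned 67.4-fold.

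**Figure D1:**
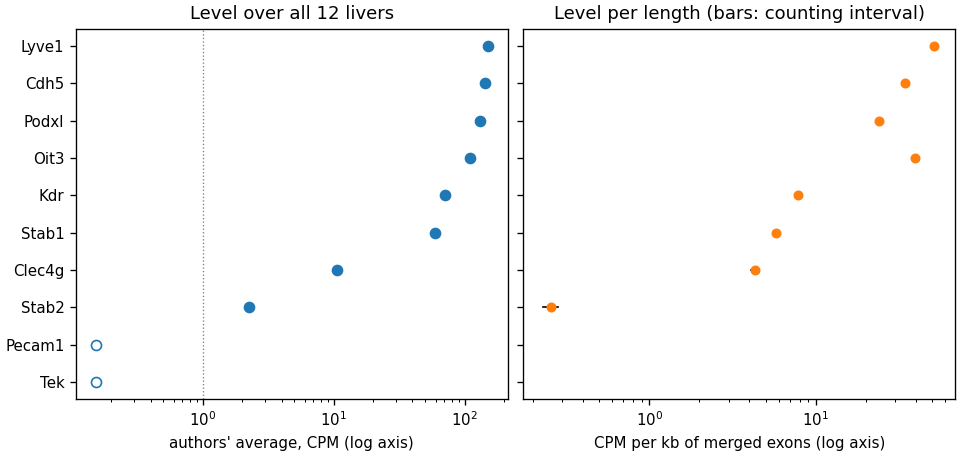
The left panel shows the authors' average level of each of the 10 genes over all 12 livers in CPM on a log axis, with open circles for genes without reads and a dotted line at 1 CPM, and the right panel shows the level per kb of exon for the 8 genes with reads, with bars for the 95% counting interval. Lyve1 is highest in both panels (151 CPM and 51.7 CPM per kb), Stab2 is the lowest gene with reads, and Pecam1 and Tek sit at the lowest value.

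Depth was high enough that counting error was small for most of these genes. The lowest value in the table and the steps above it gave a mean normalized library of 13129748 reads, or 157556973 for the 12 livers, and from these the reads behind each level were computed. Lyve1 rested on 23742 reads (95% exact Poisson interval from 23441 to 24046), Clec4g on 1647 (from 1569 to 1729) and Stab2 on 329 (from 294 to 366). The averages include a small prior count, so a row without reads reads 0.152 CPM and fold differences against genes with few reads are understated. A count of 0 reads allows up to 3 reads, or 0.0190 CPM, over all libraries. The table listed genes that nearly every cell uses at or near 0 as well, chosen after their values were seen. Ubb (ubiquitin) had 0 reads and Ppia (a cyclophilin) 2, beside 406702 for Actb and 937623 for Eef1a1. Pecam1 and Tek are thus reported only as listed at 0, and what set these values was not tested.

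The scavenger and lectin receptors of the sinusoid held both ends of the range, with Lyve1 highest and Stab2 lowest of the genes with reads. Lyve1, on the minus strand of chromosome 7 of GRCm38 (the build of mm10) from 110850607 to 110863239, has 6 merged exon blocks. Its average was 7.24 log2 CPM, or 151 CPM. Stab1, a large scavenger receptor of sinusoidal cells and some macrophages, lies on chromosome 14 from 31139013 to 31168641, with 58 exon blocks. It had 5.89 log2 CPM, or 59.4 CPM, from 9343 reads. Its paralog Stab2, on chromosome 10 from 86841198 to 87008025 with 72 exon blocks, had 1.16 log2 CPM, or 2.24 CPM. Stab1 was 26.6-fold above Stab2 in CPM and 22.6-fold above it per kb of exon, although the longest coding sequences of both are alike in length, at 7713 and 7677 bases. Clec4g, a C-type lectin receptor, lies on chromosome 8 from 3707064 to 3720651 and had 3.41 log2 CPM, or 10.6 CPM. Per kb of exon, Lyve1 was 12.0-fold above Clec4g (7.09-fold with the longest transcript as length).

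Oit3, on chromosome 10 from 59422958 to 59441778, stood between Lyve1 and Cdh5 per kb of exon. It had 6.79 log2 CPM, or 110.3 CPM, from 17360 reads, and was 9.18-fold above Clec4g per kb of exon, or 5.52-fold with the longest transcript and 5.60-fold with the longest coding sequence as length. No exon of Oit3, Lyve1, Kdr, Tek, Pecam1, Cdh5 or Podxl overlaps an exon of another gene in the annotation. Stab1 shares 112 exon bases with Nt5dc2, Stab2 shares 141 with Gm16268 and Clec4g shares 146 with Gm16553, so a small part of the reads at these 3 genes could be assigned to either gene.

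Of the junction and adhesion genes, Cdh5 was among the highest and Pecam1 was listed at 0. Cdh5 lies on chromosome 8 from 104101625 to 104144511, on the plus strand, and had 7.17 log2 CPM from 22616 reads. Pecam1, which codes for an adhesion protein of endothelium, platelets and many blood cells, lies on chromosome 11 from 106654217 to 106750628 with 6228 merged exon bases, and no read was counted on it. None of the older symbols that RefSeq gives for Pecam1 or for Tek had a row of its own. Podxl, which marks endothelium, mesothelium and early blood progenitors, lies on chromosome 6 from 31519488 to 31563981 and had 7.04 log2 CPM from 20693 reads.

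The growth factor receptors Kdr and Tek differed in the same way. Kdr, the main signalling receptor for VEGF-A, lies on chromosome 5 from 75932827 to 75978458 and had 6.15 log2 CPM, or 71.0 CPM, from 11158 reads. Tek, the receptor for angiopoietins, lies on chromosome 4 from 94739289 to 94874976 and was listed at 0. The bases just before the start of each gene are shown here because Kdr and Tek, and likewise Stab1 and Stab2, are related members with unlike values in the table. Capitals mark GGAA or its reverse complement TTCC, the core that ETS factors bind. Each sequence is the 250 bases before the RefSeq start on the gene's strand of GRCm38.p6. The gene spans given in the text come from GENCODE, whose starts can differ. The Stab2 stretch reaches from 87007943 and so lies partly inside the Stab2 span, which ends at 87008025. The Kdr stretch reaches from 75978456, just inside the Kdr span.
Kdr, chr5:75978456-75978705, minus strand: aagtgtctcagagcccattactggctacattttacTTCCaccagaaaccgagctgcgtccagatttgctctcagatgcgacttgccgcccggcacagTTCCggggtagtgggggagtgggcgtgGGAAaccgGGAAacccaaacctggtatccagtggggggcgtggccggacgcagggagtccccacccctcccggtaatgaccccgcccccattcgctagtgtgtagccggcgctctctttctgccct
Tek, chr4:94739039-94739288, plus strand: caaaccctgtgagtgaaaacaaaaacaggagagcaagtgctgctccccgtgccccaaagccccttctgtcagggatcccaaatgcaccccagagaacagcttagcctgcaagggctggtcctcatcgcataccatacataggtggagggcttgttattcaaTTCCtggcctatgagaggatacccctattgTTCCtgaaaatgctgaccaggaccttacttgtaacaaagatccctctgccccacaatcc
Stab1, chr14:31168642-31168891, minus strand: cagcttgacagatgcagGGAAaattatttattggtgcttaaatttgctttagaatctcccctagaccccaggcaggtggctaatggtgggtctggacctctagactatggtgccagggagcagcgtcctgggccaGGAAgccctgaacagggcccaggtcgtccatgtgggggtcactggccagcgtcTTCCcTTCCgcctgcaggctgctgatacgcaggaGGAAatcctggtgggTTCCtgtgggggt
Stab2, chr10:87007943-87008192, minus strand: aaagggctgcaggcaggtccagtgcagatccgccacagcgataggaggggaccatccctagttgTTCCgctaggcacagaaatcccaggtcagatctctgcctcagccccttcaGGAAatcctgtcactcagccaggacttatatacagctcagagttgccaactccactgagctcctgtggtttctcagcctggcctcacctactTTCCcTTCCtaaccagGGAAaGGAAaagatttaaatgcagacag

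All 4 stretches held the ETS core, with 4 copies for Kdr, 2 for Tek and 6 each for Stab1 and Stab2. A copy is no mark of endothelial genes, since 93.4% of the 32851 promoters in the same table held at least 1 and the median was 3. A count of 6 or more was found in 8.69% of them. CG dinucleotides numbered 16 for Kdr, 2 for Tek, 5 for Stab1 and 3 for Stab2, against a median of 6. TATAAA was found, on either strand, in none of these 4 stretches and in 12.4% of all promoters. Clec4g, the other member in that table, held 5 ETS cores and 1 TATAAA.

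Compared per length, the order of the 8 genes with reads ran from Lyve1 (51.7 CPM per kb of merged exons) through Oit3 (39.6), Cdh5 (34.2), Podxl (24.0), Kdr (7.86), Stab1 (5.78) and Clec4g (4.31) to Stab2 (0.256). The 95% counting interval was 51.0 to 52.3 for Lyve1, 4.11 to 4.52 for Clec4g and 0.231 to 0.283 for Stab2. The widest step was the 16.9-fold one from Clec4g to Stab2 (27.0-fold by longest transcript and 41.2-fold by coding length), followed by a 3.05-fold step from Podxl to Kdr (2.04-fold by longest transcript and 4.95-fold by coding length). By coding length neither pair is adjacent, and the steps there ran from Stab1 to Stab2 (26.4-fold) and from Cdh5 to Kdr (3.47-fold). The smallest step was from Oit3 to Cdh5, 1.16-fold, though by longest transcript it was from Stab1 to Clec4g, 1.01-fold. With merged exons the counting intervals of neighbours did not overlap at any of the 7 steps, but the spread between livers is not in these intervals, so whether close neighbours such as Oit3 and Cdh5 differ beyond that spread is not known. Against the 15891 rows with reads and an exon length, whose median was 0.469 CPM per kb, 7 of the 8 were above the median, and Stab2 was below it.

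Relatives of these genes gave a second view of the same families. Among VEGF receptors, Kdr and Flt4 (the VEGF-C receptor of sinusoidal and lymphatic cells) had 71.0 and 59.5 CPM, while Flt1 (a decoy and signalling receptor) had 17.7 CPM. Per kb of exon, Kdr was 1.09-fold above Flt4 and 5.98-fold above Flt1 (3.96-fold by coding length). Tie1, the relative of Tek that binds no angiopoietin by itself, had 25.8 CPM from 4035 reads. Podxl was 67.7-fold above its relative Podxl2 (2.03 CPM) and 153-fold above Cd34 (1.14 CPM) per kb of exon. These folds depended on the length used, at 26.4 and 65.7 by longest transcript and 77.5 and 87.6 by coding length. Cd44, which like Lyve1 binds hyaluronan through a link domain, had 0.516 CPM from 57 reads. Podxl2 has 10 curated RefSeq transcripts, Cd44 has 6 and Cd34 has 2, against 1 each for Podxl and Lyve1. The part of transcript number in these low values was not tested. Among cadherins, Cdh1 of epithelium had 207 CPM and Cdh2 had 91.1 CPM. Per kb of exon, Cdh1 was 1.32-fold above Cdh5.

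The ligands of these receptors were measured beside them. Of the 16 genes of the VEGF and angiopoietin pathway, Kdr and Tek included, 11 lay above 1 CPM and 2 (Tek and Nrp2) were listed at 0. Vegfa, the ligand of Kdr, had 0.534 CPM from 60 reads, Vegfb 1.39 CPM, Vegfc 3.32 CPM, Pgf 1.31 CPM and Vegfd, listed under the older symbol Figf, 5.53 CPM. Of the angiopoietins, Angpt2 had 3.24 CPM, Angpt4 0.279 CPM from 20 reads and Angpt1 0.171 CPM from 3 reads. The co-receptor Nrp1 had 52.4 CPM, and Ptprb, an endothelial phosphatase that acts on Tek, had 34.4 CPM. Per kb of exon, Kdr (7.86 CPM per kb), Flt4 (7.22) and Tie1 (5.24) were above all 8 ligands. Flt1 (1.31) was below Vegfd (2.30) and slightly below Vegfc (1.36), though the counting intervals of Flt1 and Vegfc overlapped. Flt1 was below Vegfd by longest transcript (2.57 against 2.70 CPM per kb) and by coding length (4.44 against 5.15) too. By these lengths Flt1 was above Vegfc (1.36 and 2.67). Kdr was 63.1-fold above Vegfa per kb of exon and 38.7-fold by coding length, but Vegfa has 10 curated RefSeq transcripts, and the part of transcript number in its low value was not tested.

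**Figure D2:**
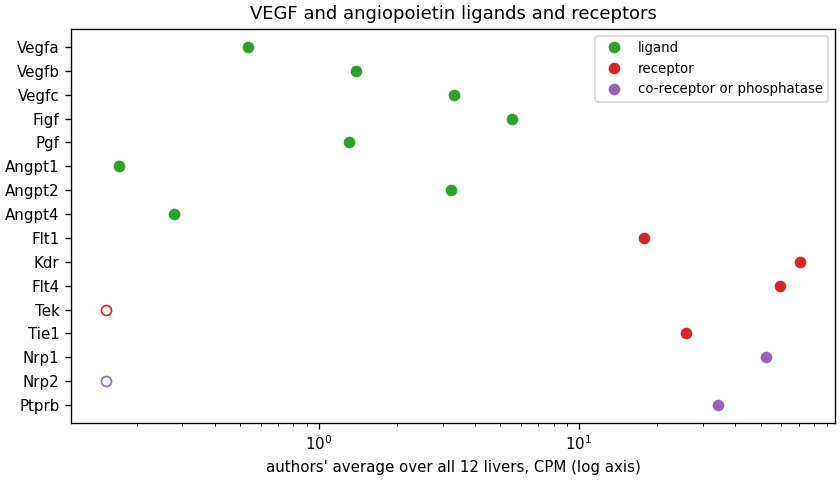
Authors' average level over all 12 livers, in CPM on a log axis, for ligands, receptors and co-receptors or phosphatase of the VEGF and angiopoietin pathway, with open circles for genes without reads. Kdr is highest at 71.0 CPM, the 8 ligands reach at most 5.53 CPM, and Tek and Nrp2 lie at the lowest value.

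Other endothelial genes had lower medians in CPM than the 10, but the gap to the sinusoidal list depended on the summary used. The mean on the log2 scale was 15.4 CPM for the 10, 10.9 CPM for the further sinusoidal genes and 3.11 CPM for the further pan-endothelial genes. That mean counts genes listed at 0 at the lowest value. None of these list values takes gene length into account. Of 22 further pan-endothelial genes, 15 lay above 1 CPM and their median was 4.87 CPM. The highest was Plvap (a protein of endothelial pore diaphragms) at 63.2 CPM, the lowest with reads was Robo4 with 1 read, and Erg and Esam were listed at 0. Of 12 further sinusoidal genes, 10 lay above 1 CPM, with a median of 15.0 CPM, from Mrc1 (the mannose receptor, also on macrophages) at 137 CPM to Gata4 (a transcription factor of sinusoidal cells and hepatocytes) at 0.372 CPM. Mrc1 was 3.73-fold above Stab1 per kb of exon. Gpr182 (a sinusoidal receptor) at 18.2 CPM per kb of exon lay between Podxl and Kdr.

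Genes of other cells that share some of these markers were also measured. Macrophages share Stab1, Lyve1 and Mrc1 with sinusoidal cells, and their 10 genes had a median of 32.5 CPM, with 7 above 1 CPM. The highest was Cd5l at 385 CPM and the lowest with reads was Cd68 with 9 reads, while the defining gene Emr1 was listed at 0. Megakaryocytes share Pecam1, and 5 of their 10 genes lay above 1 CPM, from Ppbp at 251 CPM to Gp1ba, the lowest with reads, with 1 read. Stem and progenitor genes, whose cells can carry Podxl, Tek and Kdr, had 5 of 10 above 1 CPM, from Cd93 at 62.3 CPM to Kit with 1 read and Ly6a at 0. Stellate and mesenchymal genes had 8 of 10 above 1 CPM, from Col3a1 at 712 CPM to Pdgfra at 0.443 CPM and Pdgfrb at 0. For the lymphatic and epithelial list, 9 of 10 lay above 1 CPM, from Cdh1 to Msln with 3 reads. The liver label was checked with hepatocyte genes, of which 9 of 10 lay above 1 CPM, with Alb at 63314 CPM and Serpina1a lowest at 0.184 CPM. Erythroid genes had 8 of 9 above 1 CPM, from Hbb-b1 at 24904 CPM to Alas2 at 0.704 CPM. How much each cell type gave to the level of a shared marker was not tested.

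**Figure D3:**
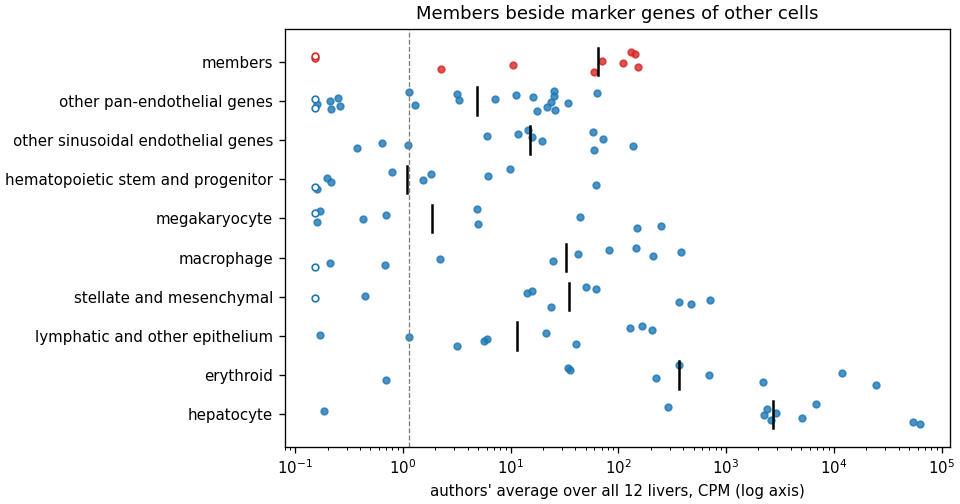
Authors' average level over all 12 livers, in CPM on a log axis, of the 10 members (red) and of marker genes of other cells (blue), with 1 point per gene, open circles for genes without reads, a black bar at each list's median and a dashed line at the median of all rows with reads (1.15 CPM). The median of the members (65.0 CPM) lies above those of the other endothelial lists (4.87 and 15.0 CPM) and below those of the erythroid and hepatocyte lists. By the mean on the log2 scale, the members (15.4 CPM) are closer to the other sinusoidal list (10.9 CPM).

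The number of curated RefSeq transcripts moved with the level among endothelial genes, a split chosen after the values were seen. The 7 members with 1 curated transcript all lay above 1 CPM, while of the 3 with more, Kdr (2 transcripts) had 71.0 CPM, and Tek (3) and Pecam1 (4) were listed at 0. Over the 44 endothelial genes of the 3 lists, 26 of 28 with 1 curated transcript lay above 1 CPM (median 24.3 CPM), against 7 of 16 with 2 or more (median 0.487 CPM). Exceptions included Esam, with 1 curated transcript and no reads, and Flt1, with 2 and 17.7 CPM. Over all protein-coding rows the same split was small, 48.7% of 11199 against 40.6% of 7062 above 1 CPM, and rows without reads were fewer, not more, among genes with several curated transcripts (18.5% against 24.3%). With the number of GENCODE transcripts it ran the other way, with 34.4% above 1 CPM for genes with 1 transcript and 47.3% for genes with more. The part of transcript number in the values of Pecam1 and Tek was not tested.

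**Figure D4:**
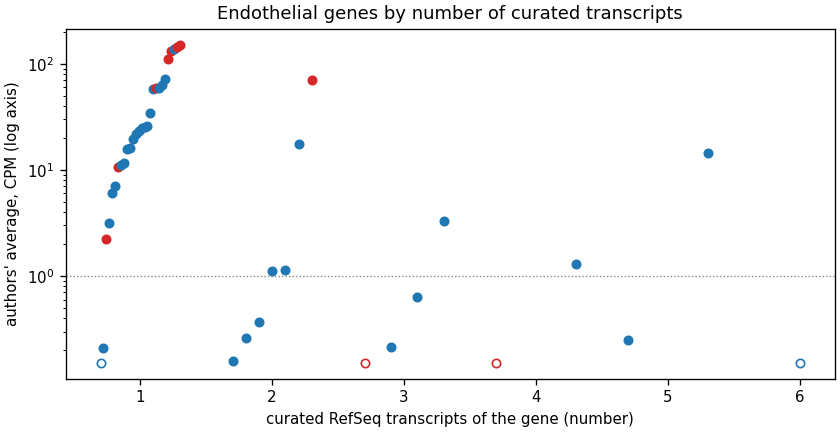
Authors' average level over all 12 livers, in CPM on a log axis, of the 44 endothelial genes by their number of curated RefSeq transcripts, with points of the same number spread sideways in order of level, members in red, other endothelial genes in blue, open circles for genes without reads and a dotted line at 1 CPM. Of the genes with 1 curated transcript 26 of 28 lie above the line, against 7 of 16 with 2 or more.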

How the data were processed

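RNA was polyA-selected, made into libraries with the TruSeq RNA kit and sequenced on an Illumina instrument. The authors used Subread 1.3.6-p1 for alignment to mm10, biomaRt for gene names and edgeR for the tests between diets. The submitters' processing notes also name cutadapt 1.2.1. The counting tool and gene models are not given in the sources used here. The authors deposited, for each gene symbol, an average log2 CPM over all 12 libraries, which includes a prior count and is printed in 2 identical columns. The table's 8 other columns of numbers hold the authors' fold changes and p-values of HFD against control. They are findings of the study and were not used, so the diet comparison planned on counts of each liver was not run and no test was made.

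Reads were computed as 12 × 2 × (2 to the power of the difference from the lowest value, minus 1), where 12 is the number of libraries and the prior count was taken as 2 per library. This was checked on the table: the 1267 rows one step above the lowest value came out between 0.984 and 1.01 reads. Of the 5453 rows with 1 to 20 reads, 97.5% lay within 0.1 of a whole number. Reads over all rows summed to 100.05% of the libraries, but that share is the same for any prior count or number of libraries. It is therefore no check of either. On simulated libraries reads were recovered with a median error of 0.248% for 617 genes with 1 to 20 reads and 0.31% for the 814 most abundant genes. The simulation assumed how far library sizes and reads vary between libraries, and it used the same prior count of 2. Its changed genes were raised in all libraries alike, not in 1 diet. These errors therefore hold for those settings only, because the spread of the real libraries is not known here. Poisson intervals cover counting error only, and PCR copies are not independent molecules.

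Levels per length used merged exons of GENCODE M21 on GRCm38, which matched all 126 list genes, older symbols included. Promoters and curated transcripts came from RefSeq (GRCm38.p6). Promoters of 5 members were matched; Lyve1, Oit3, Pecam1, Cdh5 and Podxl were not. Named were all members, their pathway and family relatives, and the highest and lowest gene of each other list. Gpr182, Ubb, Ppia, Actb and Eef1a1, and the genes listed at 0, were added after their values were seen. So were Procr, Mecom, Ramp2, Eng, Sox17 and Emcn. The members and the 12 lists were chosen with earlier results of these data known. Hba-a1 is not analysed here. Values were computed in Python 3.11.15 (scipy 1.17.1, pandas 2.3.3, numpy 2.4.6) and drawn with matplotlib 3.10.9.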

Additional observations from a re-analysis of the deposited data

How the results depend on the processing

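The second copy of the average gave the same value for every member. Removing the prior count left 8 members above 1 CPM and a median of 64.8 CPM for the 10, and moved only Pecam1 and Tek past their counting intervals, from 0.152 to 0 CPM. With the longest transcript as length all 7 neighbouring pairs kept their order, and with the longest coding sequence 5 did, because Podxl then stood above Oit3 and Cdh5 and Clec4g above Stab1. Folds per length that moved by over 1.5 times with either length stand beside their values; these lengths were applied to pairs with other genes after seeing the data. The members' median lay above 76.9% of rows above 1 CPM and 92.4% of all rows, and their mean on the log2 scale above 75.5% of rows with reads, against 88.0% for the median. That mean counts Pecam1 and Tek at the lowest value. The split of endothelial genes by curated transcripts and the genes that nearly every cell uses were chosen after seeing the data. Not run, because they need counts of single livers, were another count model, another filter and leaving out each liver, so no level here was recomputed without 1 liver or for 1 diet alone. No paired analysis was possible because no value of a single liver was used.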

Other observations

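Low values were not particular to endothelial markers. Of the 10 stem and progenitor genes, Kit had 1 read, Procr 7 and Mecom 10 over the 12 livers, and of the hepatocyte genes Serpina1a had 5 reads beside 9975588 for Alb. Among endothelial genes Ramp2 had 9 reads, Eng 10, Sox17 15 and Emcn 17. In the table as a whole, 36.1% of rows had no reads. These genes were picked after their values were seen, and what set their levels was not tested.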
